A study of Mus musculus with 24 samples.

Results

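Loss of phospholamban was examined in left ventricles of 12-month-old mice that carry the Tm180 transgene. The comparison set the 3 arrays titled Tm180/PLB KO at 12 months against the 3 arrays titled Tm180 at 12 months, which are 6 of the 24 arrays of the series. Tm180 mice carry an α-tropomyosin transgene and serve as the series' model of familial hypertrophic cardiomyopathy. Tm180/PLB KO mice carry the same transgene and lack phospholamban (PLB, encoded by Pln). Both groups compared therefore carry the transgene, and the knockout is the labelled difference between them. The other groups used below, with 3 arrays each, are nontransgenic mice (NTG) and phospholamban knockout mice without the transgene (PLB KO) at 12 months, and all 4 genotypes at 4 months. Promoter and founder line of the transgene, strain and sex of the mice are not stated in the labels, and the series holds no mouse with a transgene of normal tropomyosin. By their titles, arrays of a group are biological replicates. For replicate 2 of Tm180/PLB KO at 4 months the source name gives 12 months, while title, description and age give 4 months; it was kept at 4 months, and 4-month results are also given without it.

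Phospholamban is a small membrane protein of the sarcoplasmic reticulum, the calcium store of muscle cells. It binds the calcium pump SERCA2a, the product of Atp2a2, and slows the return of calcium to the store, and phosphorylation during adrenergic stimulation lifts that brake. Its loss is known to speed relaxation of the heart. Hypertrophic cardiomyopathy mutations of thin filament proteins such as α-tropomyosin are known to raise the calcium sensitivity of the filaments and to slow relaxation.

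All levels below are log2 expression values on the scale of the deposited table, so a difference of 1 is a doubling of signal, and all differences are Tm180/PLB KO minus Tm180 at 12 months unless another pair is named. Adjusted p-values are from a limma fit over 15918 genes, and genes with an adjusted p under 0.05 are termed called. Myl2, the ventricular regulatory light chain, lay between 13.04 and 13.26 on the 6 arrays, while Myl7, its atrial counterpart, lay between 4.85 and 6.60. Myl4, an atrial light chain chosen after its values were seen, was 7.44, 6.93 and 8.80 in Tm180/PLB KO and 7.29, 7.80 and 7.28 in Tm180. Replicate 3 of Tm180/PLB KO was the highest for both atrial genes. Of 14 atrial markers measured, 11 were higher in mean in Tm180/PLB KO (53.4% of all genes), with a median of 0.09 and 0 called. Their mean level was 7.36, 7.24 and 7.67 against 7.26, 7.35 and 7.25, so atrial signal may differ between arrays. Correlations between arrays of a group ran from 0.9689 to 0.9821. The groups were not balanced for sex-linked genes: Xist was high on 2 of the 3 Tm180/PLB KO arrays (replicates 1 and 3) and on 1 of the 3 Tm180 arrays (replicate 1), and Y-linked genes were high on the others. In bulk tissue, fewer cells of a type and less RNA per cell cannot be told apart.

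Pln was the only gene called, and it fell. Its level was 6.40, 5.94 and 6.64 in Tm180/PLB KO (6.33 ± 0.354, SD, n = 3) and 13.66, 13.59 and 13.88 in Tm180 (13.71 ± 0.151, SD, n = 3). All 3 knockout arrays lay more than 6 log2 units below every Tm180 array. The difference was -7.39 ± 0.324 (SE; 95% interval -8.06 to -6.71), a signal 167-fold lower, with a limma adjusted p of 7.81e-12. The sources used here do not say where the Pln probes lie relative to the deleted part of the gene. The 1 call was 0.00628% of the 15918 genes, with 0 genes called higher. At an unadjusted p under 0.05 there were 213 genes, 1.34% of those tested, of which 88 were higher and 125 lower in Tm180/PLB KO. With the replicate number as a block that count was 581, and Pln was again the only call.

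The precision of single genes set what could be seen. The median SE of a difference was 0.159, and the median 95% interval reached 0.331 to either side. Of all genes, 62 had means at least 1.5-fold apart, and 15 of those showed no overlap between the groups. No overlap means that all arrays of a group lay above all arrays of the other; it was seen for 382 genes higher (2.4%) and 301 genes lower (1.89%) in Tm180/PLB KO. Tpm1, the tropomyosin gene, did not pass the test: it was 13.27, 13.20 and 13.21 in Tm180/PLB KO and 13.22, 13.13 and 13.15 in Tm180, a difference of 0.06 (95% interval -0.13 to 0.24). Both groups lay above NTG for Tpm1, whose arrays read 12.78, 12.89 and 12.89.

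**Figure D1:**
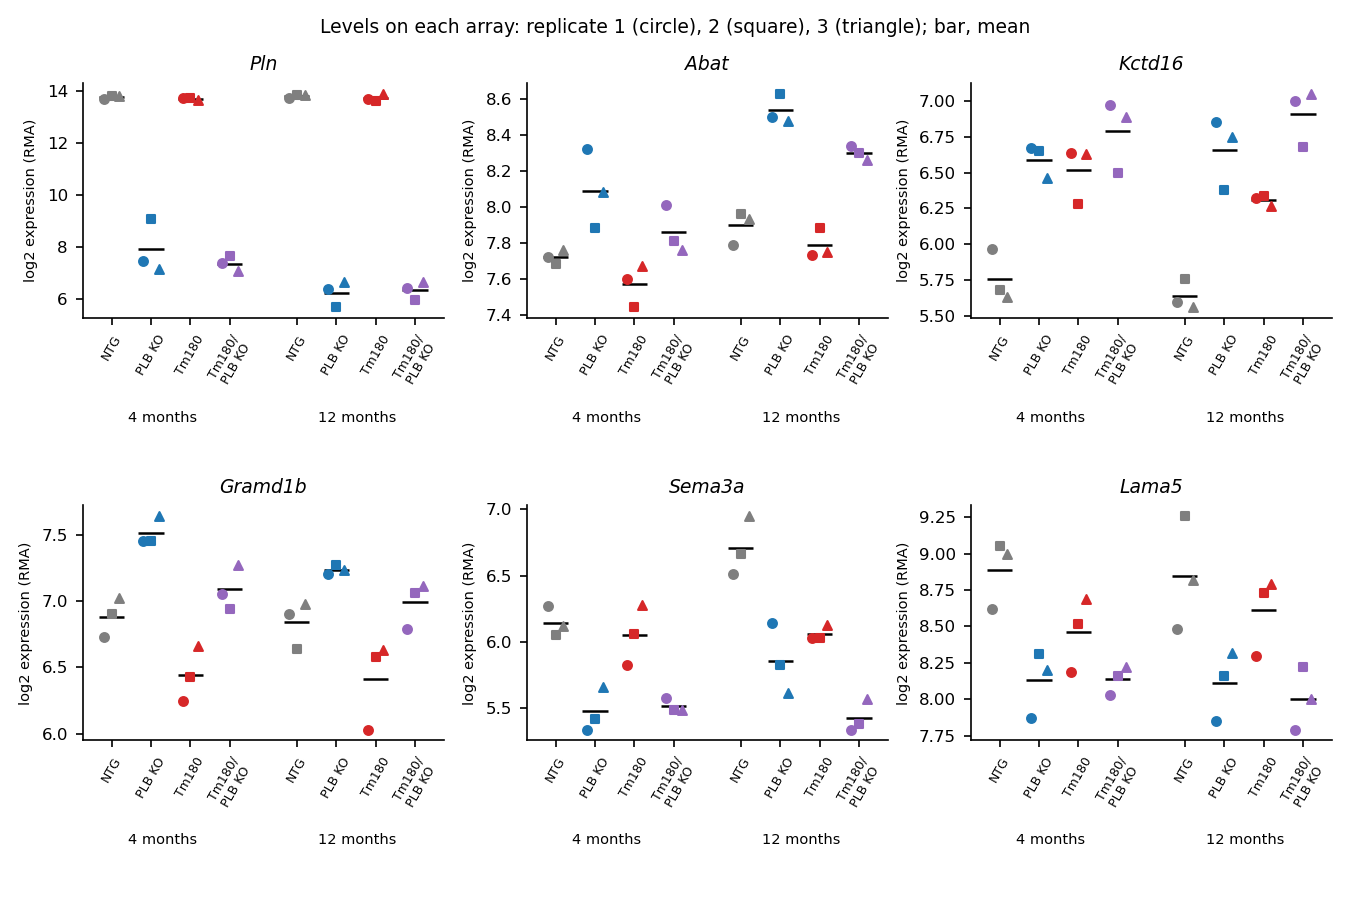
Log2 level of 6 genes on all 24 arrays, by genotype and age; symbols are replicates and bars are group means over 3 arrays. Pln lies between 5.94 and 6.64 in Tm180/PLB KO at 12 months and above 13 in Tm180 and NTG, while Abat, Kctd16 and Gramd1b lie higher and Sema3a and Lama5 lower in Tm180/PLB KO than in Tm180 at 12 months without overlap.

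Beside Pln, 0 of the other genes of sarcoplasmic reticulum calcium handling passed the limma test, and 1 had an unadjusted p under 0.05. Of 33 listed genes 29 were measured, and the median difference was -0.04, against 0.01 over all genes. Atp2a2, the pump that phospholamban restrains, read 13.38, 13.34 and 13.28 in Tm180/PLB KO and 13.39, 13.32 and 13.36 in Tm180. The groups overlapped, and the interval of the difference ran from -0.19 to 0.13 around -0.03. Ryr2, the calcium release channel, differed by -0.13 (interval -0.39 to 0.12). The calcium-binding protein Casq2 differed by 0.03 (interval -0.35 to 0.40), and the sodium-calcium exchanger Slc8a1 by -0.14 (interval -0.44 to 0.15).

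Other regulators in this list stood further apart without passing. Sln encodes sarcolipin, a relative of phospholamban that also restrains the pump. It was 5.12, 5.03 and 5.48 in Tm180/PLB KO and 4.95, 5.03 and 4.89 in Tm180, touching at 5.03 and close to the low end of the signals, with a difference of 0.26 (interval -0.34 to 0.85). Tmem38b, a potassium channel subunit of the reticulum, was 7.36, 8.0 and 7.50 against 7.61, 8.41 and 8.43. Its difference was -0.53 ± 0.221 (SE; unadjusted p = 0.0272, limma adjusted p = 1), and the groups overlapped.

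The 12 named genes with the smallest p among those higher in Tm180/PLB KO without overlap differed by 0.28 to 0.76, and 0 of them passed the test. Abat, the enzyme that breaks down GABA, had the smallest p. It was 8.34, 8.30 and 8.26 in Tm180/PLB KO and 7.73, 7.88 and 7.75 in Tm180, a difference of 0.51 ± 0.108 (SE; limma adjusted p = 0.712). Kctd16, which associates with GABA-B receptors, was 7.0, 6.68 and 7.05 against 6.32, 6.34 and 6.27, a difference of 0.60 ± 0.149. Every Tm180/PLB KO array lay above every Tm180 array for both genes, which was part of how they were chosen. Gramd1b, a cholesterol transfer protein of the endoplasmic reticulum, was 6.79, 7.06 and 7.11 against 6.03, 6.58 and 6.63, a difference of 0.57 ± 0.151. Osbpl6, of the oxysterol-binding protein family, differed by 0.55 ± 0.151.

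Other genes of that set take part in membrane excitability, phospholipid turnover and glycogen use. Kcnd2, the pore of a fast transient potassium channel, was 8.05, 7.63 and 8.01 against 7.47, 7.12 and 7.41. Its NTG arrays read 8.21, 8.49 and 8.02, so the Tm180/PLB KO mean lay between those of Tm180 and NTG, with overlap of Tm180/PLB KO and NTG. Kcnn2, a calcium-activated potassium channel, differed by 0.38 ± 0.127. Pla2g5, a secreted phospholipase, had the largest difference of the 12, at 0.76 ± 0.190. It was 7.66, 7.37 and 7.84 in Tm180/PLB KO, 6.93, 6.84 and 6.80 in Tm180, and 7.60, 8.39 and 7.74 in NTG. Phkg1, the catalytic subunit of muscle phosphorylase kinase, was 7.17, 6.52 and 6.94 against 6.02, 6.09 and 6.36, with NTG at 6.74, 7.60 and 6.70. For Phkg1 and Pla2g5 the Tm180/PLB KO arrays thus lay nearer to NTG than the Tm180 arrays did. These genes and Kcnd2 were chosen for their low values on the same Tm180 arrays, which favours such a position. Grk3, a kinase of G protein-coupled receptors, differed by 0.40, Mreg, a protein of melanosome transport, by 0.52, Spryd7 by 0.48 and Zfp658, a zinc finger gene, by 0.28.

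The 11 genes beside Pln with the smallest p among those lower without overlap differed by -0.72 to -0.45, and 0 passed the test. Sema3a, a secreted guidance protein that patterns sympathetic nerves of the heart, was 5.34, 5.38 and 5.57 in Tm180/PLB KO and 6.03, 6.03 and 6.13 in Tm180. Its difference was -0.63 ± 0.141 (SE; limma adjusted p = 0.712). NTG arrays read 6.51, 6.66 and 6.95, so Tm180/PLB KO lay farther below NTG than Tm180 did. Lama5, the α5 chain of basement membrane laminin, was 7.79, 8.22 and 8.0 against 8.30, 8.73 and 8.79, a difference of -0.60 ± 0.195. Its NTG arrays, at 8.48, 9.26 and 8.82, lay above all 3 Tm180/PLB KO arrays and overlapped those of Tm180.

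The rest of the lower set had mixed roles. Tnfsf18, the ligand of the T cell receptor GITR, was 4.44, 4.17 and 4.39 in Tm180/PLB KO and 4.80, 5.23 and 4.68 in Tm180, a difference of -0.57 ± 0.127. Cp, the copper-carrying ferroxidase ceruloplasmin, was 9.83, 9.76 and 9.49 against 10.41, 10.35 and 10.49, the largest difference of the 11 at -0.72 ± 0.162. NTG arrays of 12 months had mean levels of 4.40 ± 0.121 (SD, n = 3) for Tnfsf18 and 9.86 ± 0.180 for Cp. Both means lay nearer to Tm180/PLB KO than to Tm180, which choosing the genes on these same Tm180 arrays favours. A gene was tested if it exceeded 4.83 on at least 3 arrays, and Tnfsf18 did so only on Tm180 arrays. It was thus tested only because it was high in Tm180. Shisa3, an inhibitor of Wnt and FGF signalling, differed by -0.57, and Edn3, a peptide of the endothelin family, by -0.52. Cd163, the macrophage scavenger receptor for haemoglobin, differed by -0.60, Mctp1, a calcium-binding membrane protein, by -0.60, and Thsd7a by -0.50. Gda, a guanine deaminase, differed by -0.47, and Adgrd1, an adhesion receptor, by -0.45.

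These 23 genes were then read in the other pairs of groups, which share no arrays with the comparison but share its estimate of spread. For the same change of genotype at 4 months, 11 of the 12 higher genes were again higher in mean, and 9 did so without overlap, against 3.88% of all genes. All 11 lower genes were again lower in mean, 7 of them without overlap, against 4.26% of all genes. Tnfsf18, counted in both, passed the level filter only through Tm180 arrays, those of 4 months among them, which favours its count here. Without the array whose labels conflict, 11 of the 12 and 9 of the 11 kept their sign at 4 months. Over all genes, 45.9% were higher and 54.1% lower in mean at 4 months. None of the 23 passed the limma test there, and an unadjusted p under 0.05 in the same direction was reached by 5 of the higher and 6 of the lower genes, against 3.89% of all genes in either direction. The fit gives each gene 1 estimate of spread over all 24 arrays, so genes chosen for a small p share that estimate in every pair of groups.

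Without the transgene at 12 months, 10 of the 12 and 8 of the 11 had the same sign in PLB KO against NTG, where 56.8% of all genes were higher. In PLB KO against NTG at 4 months 9 of the 12 and 6 of the 11 did, where 48.1% of all genes were higher and 51.9% lower, and limma called 0 of the 23 (0.00628% of all genes), with 4 of the higher and 5 of the lower genes at an unadjusted p under 0.05 in the same direction (3.09% of all genes in either). At 12 months, 3 of the 23 passed the test, against 0.0817% of all genes. Kctd16 rose by 1.02 ± 0.149 (SE; limma adjusted p = 0.00802) and Abat by 0.64 ± 0.108 (limma adjusted p = 0.0166), while Sema3a fell by 0.84 ± 0.141 (limma adjusted p = 0.0166). These 3 calls were lost when the fit held the compared groups alone (limma adjusted p 0.545, 0.756 and 0.787) or the 12 arrays of 12 months (0.0763, 0.105 and 0.197). A contrast added after the data were seen took the mean effect of phospholamban loss over the 3 pairs of groups other than the one reported here. It called 31 genes (0.195%; 149 with the replicate block), 13 higher (0.0817%) and 18 lower with Pln among them (0.113%). Of the 23, 6 passed: Abat, Kctd16 and Gramd1b rose, by 0.43, 0.71 and 0.56, and Sema3a, Shisa3 and Lama5 fell, by 0.68, 0.46 and 0.61. Without the array whose labels conflict, 19 of the 31 were still called, all 6 of these among them, with limma adjusted p up to 0.0495 for Lama5. Pla2g5, Kcnd2 and Mctp1 gave 0.06, -0.04 and 0.15 there, none of them called. Of the 6, Shisa3 differed by 0.00 in PLB KO against NTG at 12 months. Its mean effect came from the pairs of 4 months, at -0.58 without and -0.79 with the transgene. Xist was high on 2 NTG and all 3 PLB KO arrays of 12 months, on 2 Tm180 and all 3 Tm180/PLB KO arrays of 4 months, and on 2 NTG and 0 PLB KO arrays of 4 months. With the mean of the Y-linked genes as a covariate, all 31 genes called in this mean effect were still called, and the differences here were 0.53 for Abat, 0.60 for Kctd16, 0.59 for Gramd1b, -0.63 for Sema3a, -0.50 for Shisa3 and -0.62 for Lama5.

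**Figure D2:**
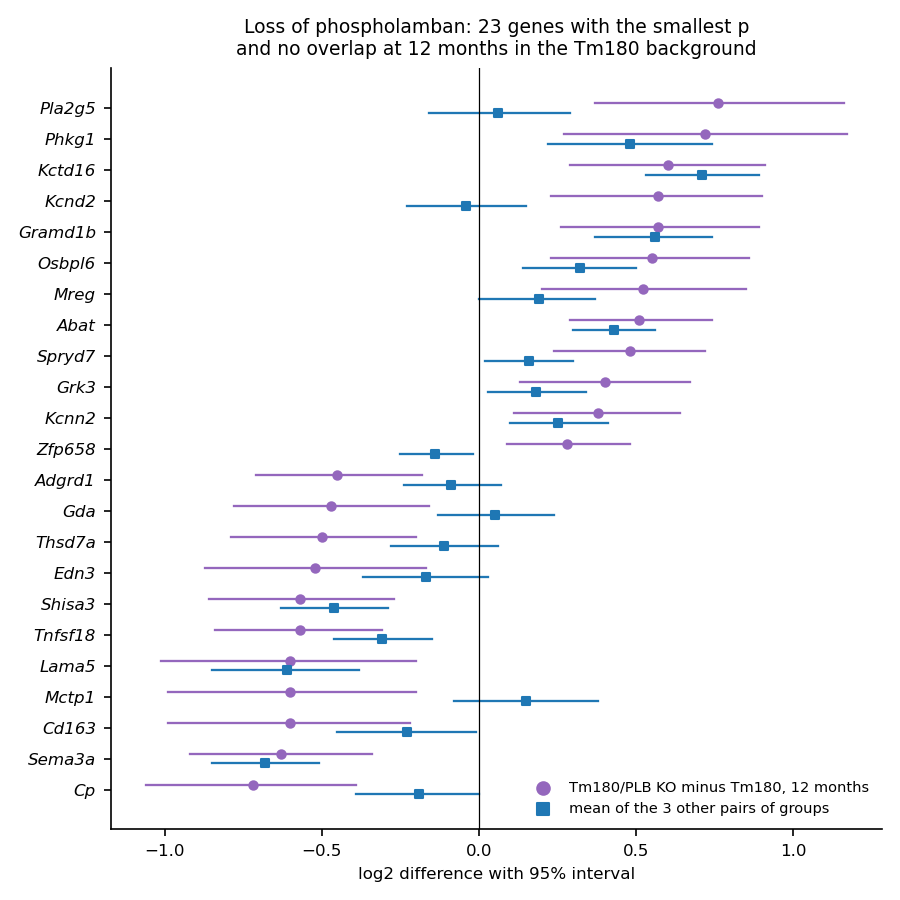
Log2 difference with its 95% interval for the 23 genes, in Tm180/PLB KO minus Tm180 at 12 months (circles) and in the mean of the 3 other pairs of groups (squares), which share no arrays with it. The circles are high or low by choice; among the squares, Kctd16 at 0.71, Gramd1b at 0.56 and Sema3a at -0.68 lie farthest from 0 with Lama5 at -0.61.

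The reverse reading started from the 31 genes called in that mean effect. Of the 30 beside Pln, 12 of 13 higher and 16 of 17 lower genes had the same sign in Tm180/PLB KO against Tm180 at 12 months, while 55% of all genes shared a sign in both. An unadjusted p under 0.05 in the same direction was reached here by 13 of the 30, against 1.34% of all genes in either direction, and 11 did not overlap, against the 2.4% and 1.89% given above. Both counts hold Abat, Kctd16, Gramd1b, Sema3a, Shisa3 and Lama5, the genes already counted in the first reading. Mylk4, a myosin light chain kinase of heart muscle, was 8.41, 8.06 and 8.23 here against 9.49, 8.19 and 8.85 in Tm180, a difference of -0.61 ± 0.229 beside -0.90 in the other pairs. Mybpc2, the fast myosin-binding protein C, was 9.26, 8.77 and 9.03 against 8.84, 8.20 and 8.38, a difference of 0.55 beside 0.71. Grk5, a receptor kinase abundant in the heart, was 8.76, 8.72 and 8.40 against 9.24, 9.13 and 8.73, a difference of -0.40 beside -0.42. For these 3 genes 1 array overlapped the other group. Abcb4, a phospholipid transporter named after its values were seen, differed by 0.42 here and 0.53 there, and its arrays did not overlap here.

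Genes of the fetal and hypertrophy programme were divided. Of 22 measured, 0 passed the limma test and 1 had an unadjusted p under 0.05, the median difference was -0.01, and 11 were higher and 11 lower in mean. Nppa, the atrial natriuretic peptide that diseased ventricles express, was 13.00, 13.28 and 12.84 in Tm180/PLB KO and 12.83, 13.43 and 12.98 in Tm180. These groups overlapped, with a difference of -0.04 (interval -0.62 to 0.54), and both lay above the NTG arrays at 10.35, 11.40 and 10.97. Nppb, the related B-type peptide, differed by 0.00 (interval -0.53 to 0.54). Myh7, the slow myosin heavy chain, was 12.28, 12.11 and 12.27 against 12.85, 12.42 and 12.59. Its arrays did not overlap, but the difference of -0.40 ± 0.207 did not pass (unadjusted p = 0.0673, limma adjusted p = 1), and NTG read 11.18, 11.61 and 11.46. Fhl1, a LIM protein raised in stretched myocardium, differed by -0.55 without overlap (unadjusted p = 0.0602), and skeletal α-actin, Acta1, by -0.35 with overlap.

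Whether phospholamban loss acted differently with and without the transgene was tested as an interaction at 12 months. Limma called 0 genes, with 289 at an unadjusted p under 0.05 (1.82%). Nppa had the smallest p of the named genes. It rose by 1.81 ± 0.280 in PLB KO against NTG (limma adjusted p = 0.0093), and the difference between the backgrounds was -1.85 ± 0.395 (unadjusted p = 0.000139, limma adjusted p = 1). The 14 atrial markers measured, Nppa among them, had a median of 0.30 in PLB KO against NTG at 12 months. Single markers went both ways. Myl4 differed by 2.09 and Kcnj3 by -0.32 without overlap, neither of them called. Myl7 was 9.88, 8.58 and 8.36 in PLB KO and 5.51, 8.58 and 5.25 in NTG. Nppa was 12.17, 12.98 and 12.98 on the same PLB KO arrays. In PLB KO against NTG at 4 months Nppa differed by 1.46, not called, and Myl7 by -1.26. The part of atrial signal in the Nppa value was not tested. Etv5, a transcription factor of the ETS family, followed, with 0.86 in PLB KO against NTG, -0.32 here, and a difference of -1.18 ± 0.256.

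Limma called 13 genes in PLB KO against NTG at 12 months (0.0817%), 12 of them beside Pln. With the replicate block the count was 49, and with the compared groups alone or the 12 arrays of 12 months in the fit Pln was the only call. In Tm180/PLB KO against Tm180, 11 of the 12 had the same sign, against 51.7% of all genes. An unadjusted p under 0.05 was reached by 3 of these, against 1.34% of all genes, and 4 did not overlap, against 2.4% of all genes higher and 1.89% lower. The 3 were Abat, Kctd16 and Sema3a, already counted above, and Xirp2 also did not overlap. Several others shared the sign but lay near 0 here. Ucp3 differed by -0.05 here and -1.49 in PLB KO against NTG, and Slc25a22 by -0.03 and -0.83. Dlx5 differed by 0.05 and 0.88, and Tmem47 by -0.05 and -0.78. Ucp3, a mitochondrial carrier of muscle, was 6.63, 6.19 and 6.99 in Tm180/PLB KO and 7.19, 6.12 and 6.64 in Tm180, which overlap. PLB KO read 7.53, 6.55 and 7.17 and NTG 8.10, 8.65 and 8.98, so all 3 modified genotypes lay below NTG. All 3 also lay below NTG for the mitochondrial glutamate carrier Slc25a22, at 7.16, 7.02 and 7.18 in Tm180/PLB KO, 7.23, 7.13 and 7.10 in Tm180, 7.22, 6.83 and 7.10 in PLB KO, and 7.65, 8.12 and 7.85 in NTG. Both genes were chosen because PLB KO was called below these same NTG arrays, which favours other groups lying below them too. At 4 months Tm180 and PLB KO differed from NTG by 0.07 and 0.19 for Ucp3. For Slc25a22 these differences were -0.11 and -0.01. Acsm5, a medium-chain acyl-CoA synthetase, differed by -0.20 here, the magnesium transporter gene Slc41a3 by -0.12 and the galectin gene Lgals4 by -0.04. None of these passed here, while in PLB KO against NTG they differed by -1.06, -1.14 and -1.11.

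The genes that set Tm180 apart from NTG at 4 months were read at 12 months, on other arrays that entered the choice only through the shared estimate of spread. At 4 months limma called 47 genes higher and 34 lower in Tm180 than in NTG, 0.295% and 0.214% of all genes, while the count in both directions, 81, was 557 with the replicate block and 13 with the compared groups alone. At 12 months 0 of these 81 differed past the limma test between Tm180/PLB KO and Tm180. An unadjusted p under 0.05 was reached by 2 higher and 3 lower of the 47 and by 5 higher and 2 lower of the 34. For all genes the share was 1.34% in either direction. Without overlap, 4 of the 47 were higher and 4 lower, and 6 of the 34 were higher and 1 lower. Those shares were 2.4% and 1.89% of all genes. The 47 had a median difference of -0.08, with 33 of them (70.2%) lower in mean, against 46.6% of all genes. The 34 had a median of 0.09, with 25 of them (73.5%) higher in mean, against 53.4% of all genes. Both medians followed replicate 2 of Tm180: without it they were 0.00 and 0.02. The sizes were small beside the genes' distance from NTG. At 12 months the 47 had a median of 0.71 in Tm180 against NTG and 0.67 in Tm180/PLB KO against NTG, and the 34 had -0.65 and -0.44, both pairs read against the same NTG arrays. In mean, 46 of the 47 stayed above NTG and 33 of the 34 stayed below it in Tm180/PLB KO.

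The members farthest from NTG at 4 months were read singly. Thbs4, a matrix glycoprotein of injured heart, was 7.80, 8.07 and 7.95 in Tm180/PLB KO and 7.65, 9.63 and 7.83 in Tm180. Replicate 2 of Tm180 stood alone, the difference was -0.43 ± 0.353, and without that array it was 0.20. Postn, made by activated fibroblasts, was 9.85, 10.05 and 9.80 against 9.94, 10.28 and 9.07, and Cilp, a matrix protein of cardiac fibroblasts, differed by 0.01. Both genes overlapped between the groups. Among the genes low in Tm180, the lipid hydrolase Ces1d was 8.63, 7.59 and 8.54 against 8.05, 6.56 and 7.49, a difference of 0.88 ± 0.360 (unadjusted p = 0.023). The amylase gene Amy1 differed by 0.56 ± 0.273 and Lgi1, a secreted synaptic protein, by 0.18 ± 0.400. The chemokine gene Ppbp differed by 0.06. Mylk4, described above, lay lower still in Tm180/PLB KO than in Tm180. Kctd16 and Mybpc2, both among the 47, differed by 0.60 and 0.55 here and so lay farther above NTG in Tm180/PLB KO than in Tm180. Tnfsf18, also among the 47, rose by 0.79 in Tm180 at 4 months and differed by -0.57 here. It exceeded the filter level of 4.83 only on Tm180 arrays, so the filter itself favoured its place among the 47 and its fall here.

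**Figure D3:**
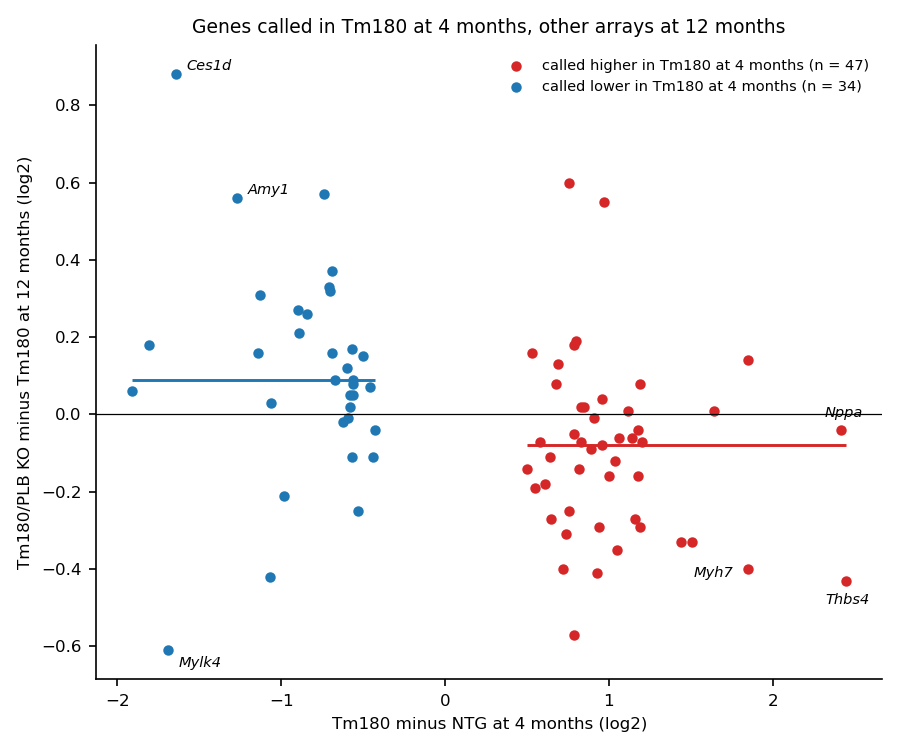
Each point is a gene called in Tm180 against NTG at 4 months, with that difference on the x axis and Tm180/PLB KO minus Tm180 at 12 months on the y axis, both in log2; lines are the medians of the 47 higher (-0.08) and 34 lower genes (0.09). Points on either side scatter around 0, with Ces1d highest at 0.88 and Mylk4 lowest at -0.61.

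Macrophage markers were lower in mean throughout the list. Of 16 listed markers 15 were measured, 0 passed the test, and 4 had an unadjusted p under 0.05 (1.34% of all genes), and all 15 were lower in mean in Tm180/PLB KO, with a median of -0.30, against 46.6% of all genes lower and a median of 0.01. Cd163 was 6.14, 5.89 and 6.23 against 6.61, 6.65 and 6.82. Mrc1, the mannose receptor of resident macrophages, was 7.80, 8.22 and 7.96 against 8.11, 8.71 and 8.61, a difference of -0.49 ± 0.169 (unadjusted p = 0.00908). Lyve1, shared by resident macrophages and lymphatic vessels, was 8.10, 8.09 and 7.84 against 8.17, 8.68 and 8.26. Cd163, Lyve1 and Folr2 did not overlap, which is 3 of 15 beside 1.89% of all genes, and Mrc1 overlapped by 1 array.

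The list's mean level was 7.14, 7.36 and 7.23 on the Tm180/PLB KO arrays and 7.29, 7.69 and 7.62 on the Tm180 arrays, so the groups overlapped. Within the 3 same-numbered pairs of arrays the list's median was -0.15, -0.32 and -0.42. Its median was between -0.45 and -0.18 when any 1 of the 6 arrays was left out, the first without replicate 1 and the second without replicate 2 of Tm180. With the Y-linked covariate it was -0.32. At 4 months, on other arrays, 12 of the 15 were lower in mean with a median of -0.35 (-0.34 without the array whose labels conflict), and 5 were lower without overlap, against 4.26% of all genes. In PLB KO against NTG at 12 months, the median was -0.02. No test compared these medians. Of the lymphatic markers 6 were measured, 0 passed the limma test and 3 had an unadjusted p under 0.05, against 1.34% of all genes, with a median of -0.28. At 4 months their median was -0.10, with 0 at an unadjusted p under 0.05 and 0 without overlap. Mmrn1, a matrix protein of lymphatic vessels, differed by -0.43 without overlap, and Prox1, the factor that defines lymphatic cells, by 0.03.

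Inflammation and complement genes varied widely within the Tm180 group, with a mean level of 6.57, 8.03 and 6.95 on its arrays and 6.55, 7.31 and 6.56 in Tm180/PLB KO. Of 41 listed genes 34 were measured, 0 passed the test, 29 were lower in mean, and the median was -0.37. An unadjusted p under 0.05 was reached by 6, all lower, against 1.34% of all genes, but 0 of the 34 separated the groups without overlap, against 1.89% of all genes lower. At 4 months its median had the other sign, at 0.22 with 19 of 34 higher in mean. The difference between the ages was not tested for the list. At 4 months an unadjusted p under 0.05 was reached by 11 higher and 2 lower genes, against 3.89% of all genes in either direction. Without overlap 12 were higher and 5 lower, against 3.88% and 4.26% of all genes. Its median was -0.02 in PLB KO against NTG at 12 months and 0.31 at 4 months, where 29 of 34 were higher. For 23 of the 34 the highest of the 6 arrays was replicate 2 of Tm180, and for 8 it was replicate 3. Lcn2, the iron-scavenging acute-phase protein lipocalin 2, was 5.05, 7.93 and 8.09 in Tm180 and 5.43, 5.88 and 5.48 in Tm180/PLB KO. Replicates 2 and 3 of Tm180 were high and replicate 1 was the lowest of the 6 arrays. Without replicate 2 of Tm180 the list's median was 0.02, and with any other of the 6 arrays left out it lay between -0.59 and -0.16. With the Y-linked covariate it was -0.13.

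A set of genes chosen after their values were seen followed the same arrays. Cxcl13, a B cell chemokine, was 4.41, 6.99 and 7.12 in Tm180 and 4.30, 4.42 and 4.98 in Tm180/PLB KO. Serpina3n, an acute-phase protease inhibitor, was 8.17, 11.63 and 11.34 against 8.25, 9.75 and 8.77. Ahsg, the plasma protein fetuin A, was 5.73, 7.72 and 7.07 against 5.40, 5.97 and 5.88. The NTG arrays of 12 months read 5.63, 5.78 and 5.57 for Lcn2 and 4.43, 4.52 and 4.96 for Cxcl13, so 2 of the 3 Tm180 arrays stood apart from all others of that age. Left out in turn, replicate 1 of Tm180 was the only array whose absence changed the calls. Without it 5 genes fell by limma: Pln, Cxcl13 by 2.49, Lcn2 by 2.41, Ahsg by 1.64 and Cfb, complement factor B, by 0.95 (limma adjusted p beside Pln from 0.0316 for Cfb to 0.000404 for Cxcl13). Replicates 2 and 3 of Tm180 are the arrays of that group with high Y-linked genes. The Tm180/PLB KO array with high Y-linked genes, replicate 2, was the highest of its group for Lcn2, Serpina3n and Ahsg, while replicate 3 was the highest for Cxcl13 and Cfb. The NTG array with high Y-linked genes, replicate 3, was the lowest of its group for Lcn2, at 5.57, and the highest for Cxcl13, at 4.96. With the Y-linked covariate the differences were -1.19 for Lcn2, -1.54 for Cxcl13, -1.09 for Serpina3n, -0.97 for Ahsg and -0.50 for Cfb, and none was called.

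**Figure D4:**
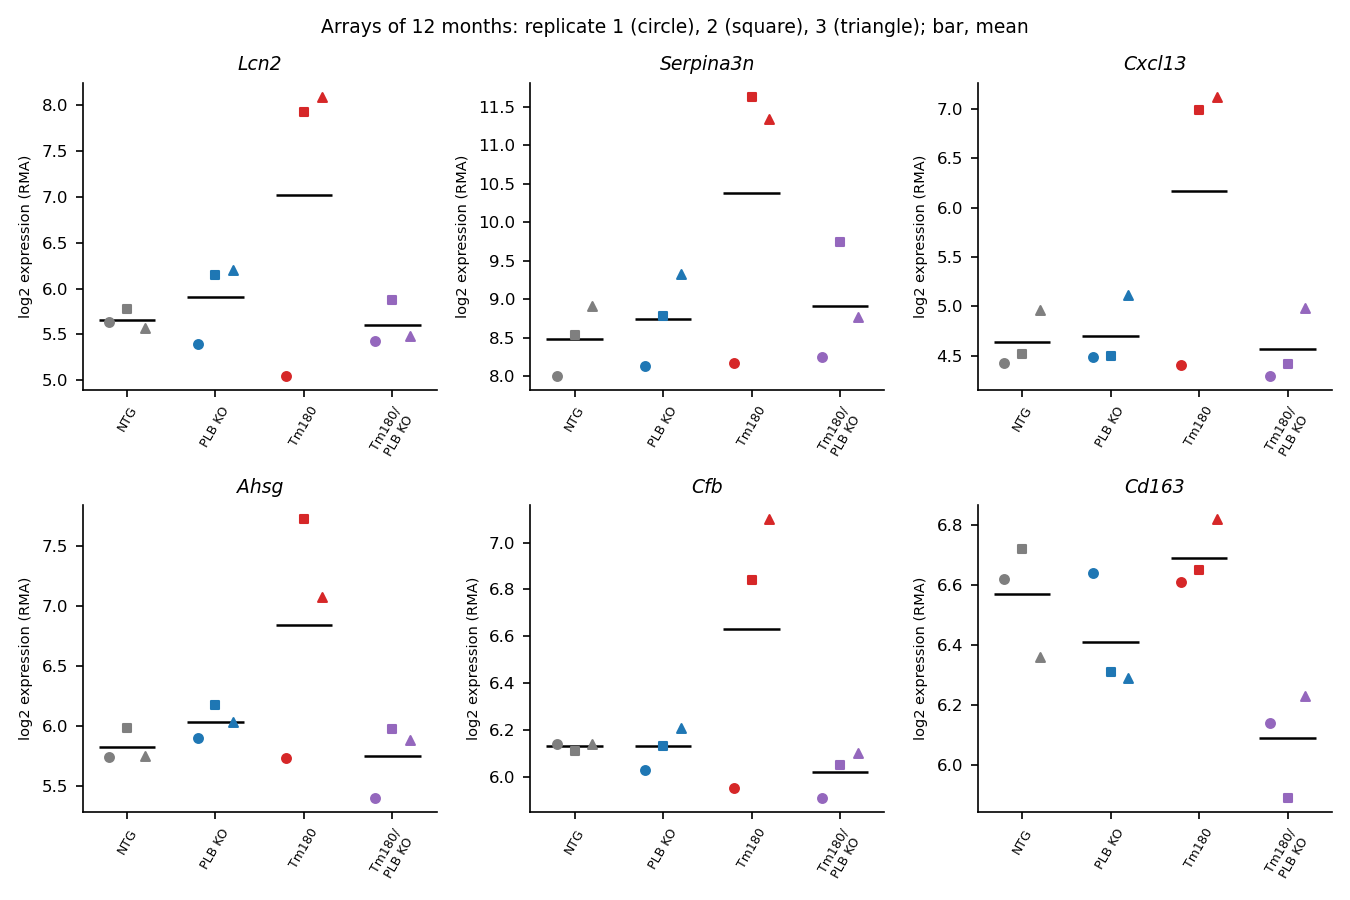
Log2 level of 6 genes on the 12 arrays of 12 months; symbols are replicates and bars are group means over 3 arrays. Replicates 2 and 3 of Tm180 stand above the other arrays for Lcn2, Serpina3n, Cxcl13, Ahsg and Cfb, while Cd163 is lower on all 3 Tm180/PLB KO arrays than on all 3 Tm180 arrays.

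Lists of metabolism, ion channels and the sarcomere had medians within 0.1 of 0. The list of sex-linked genes, unbalanced between the groups as described, had a median of -1.08 with 0 called. Oxidative phosphorylation genes were higher in mean for 43 of 49, but by a median of only 0.05, and the 3 same-numbered pairs of arrays gave 0.04, 0.11 and -0.02. Fatty acid oxidation had a median of -0.05 over 34 genes, with the mitochondrial gatekeeper Cpt1a at -0.22 and the thioesterase Acot2 at -0.38. Glycolysis and glucose use had a median of 0.01. In that list Ugp2, which makes UDP-glucose for glycogen, was 10.18, 10.35 and 9.78 against 9.72, 9.72 and 9.57, a difference of 0.43 ± 0.171 without overlap (unadjusted p = 0.0205). Muscle enolase, Eno3, differed by 0.21. Cardiac ion channels had a median of 0.08, led by Kcnd2, and sarcomere and Z disc genes of 0.06. Limma called 0 genes in each of these lists, with 0 to 2 genes of each at an unadjusted p under 0.05.

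Extracellular matrix genes had a median of -0.05 over 61 genes, with 0 called by limma, 0 at an unadjusted p under 0.05 and 0 that separated the groups. Lox, the collagen cross-linking oxidase, was 4.93, 5.76 and 5.16 against 5.02, 6.97 and 5.73, so replicate 2 of Tm180 was again the highest. The fibrillar collagen genes Col1a1 and Col3a1 differed by 0.02 and -0.08, with intervals of -0.72 to 0.76 and -0.93 to 0.77. Adrenergic and natriuretic signalling had a median of -0.01. In it Npr3, the clearance receptor for natriuretic peptides, was 7.87, 8.35 and 7.79 against 8.57, 8.61 and 8.41, a difference of -0.53 ± 0.194 without overlap (unadjusted p = 0.0133). Immediate-early genes had a median of 0.00 but a mean level of 8.24 on replicate 2 of Tm180/PLB KO and 8.60 on replicate 2 of Tm180, against 6.92 to 7.23 on the other 4 arrays. Ventricular cardiomyocyte markers had a median of 0.07 and endothelial markers of -0.02.

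**Figure D5:**
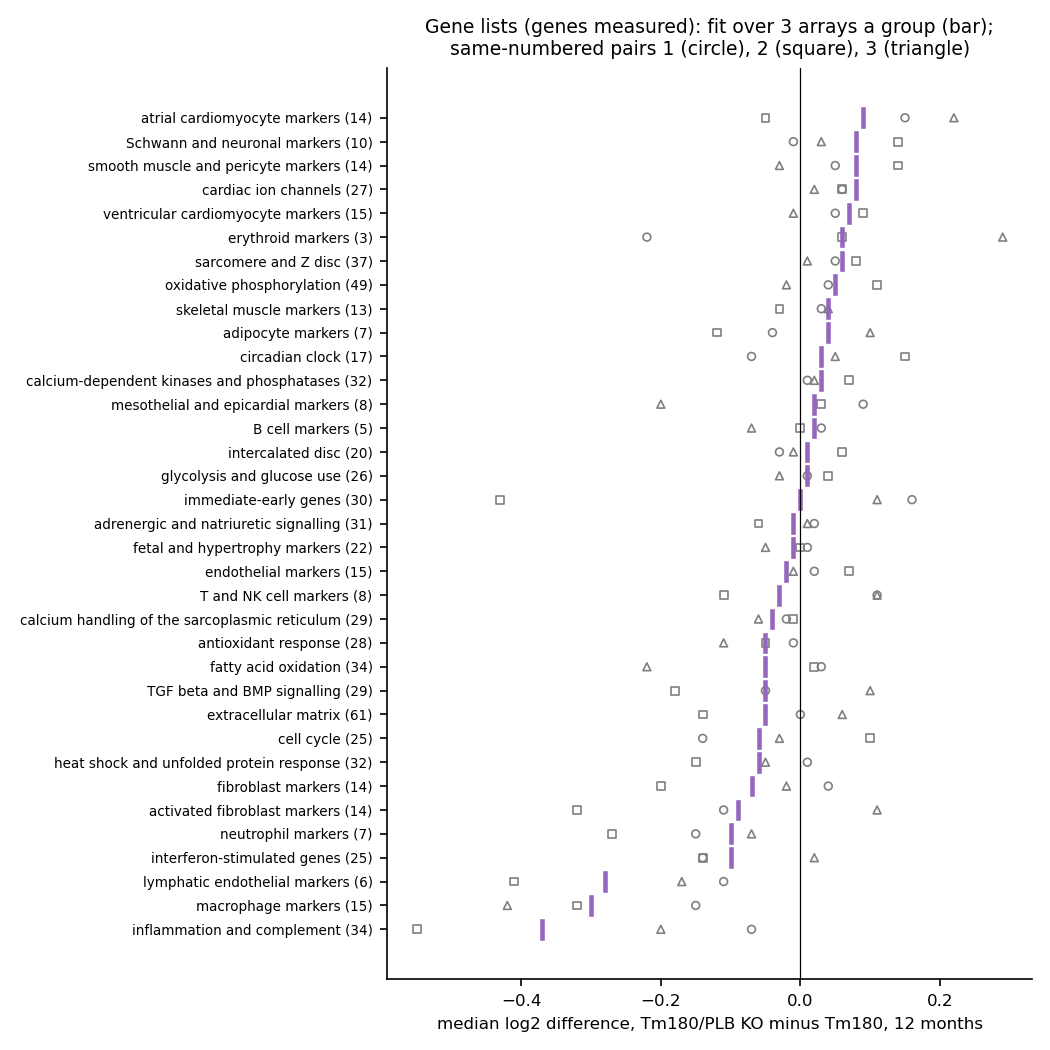
Median log2 difference, Tm180/PLB KO minus Tm180 at 12 months, of 35 gene lists (the sex-linked list is not drawn), with the number of genes measured in brackets; bars are from the fit over 3 arrays a group and open symbols are the 3 same-numbered pairs of arrays. Inflammation and complement (-0.37), macrophage (-0.30) and lymphatic (-0.28) markers lie lowest of those drawn, with all 3 pairs below 0, and most other lists lie within 0.1 of 0.

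The age difference was tested directly. The same comparison at 4 months called 3 genes, 0.0188% of those tested, or 15 with the replicate block: Pln fell by 6.33, and Slc16a13, a monocarboxylate transporter gene, and Bcl6b, an endothelial transcriptional repressor, rose by 2.04 and 1.43. Without the array whose labels conflict Pln was the only call, with 1.95 for Slc16a13 and 1.35 for Bcl6b (limma adjusted p 0.116 and 0.208). At 12 months Slc16a13 was 6.79, 7.40 and 6.91 against 6.87, 7.42 and 6.78, a difference of 0.01 (interval -0.64 to 0.65), and Bcl6b differed by 0.18 (interval -0.32 to 0.68). For both genes the groups overlapped. Limma called 0 genes in the test of 12 against 4 months, with 239 at an unadjusted p under 0.05 (1.5%). The named genes with the smallest p were Slc16a13, at -2.03 ± 0.439 (unadjusted p = 0.000152, limma adjusted p = 1), and Birc3, an inhibitor of apoptosis, at -1.62 ± 0.425. Birc3 differed by 1.31 at 4 months and by -0.31 at 12 months, neither of them called. In the same pair at 4 months immediate-early genes had a median of 1.02, with Jun at 0.99, not called. On the NTG arrays of 4 months Jun was 9.02, 8.29 and 8.06. On these arrays Slc16a13 was 8.14, 6.82 and 7.14, and Bcl6b 8.92, 7.96 and 8.52. Whether Slc16a13, Bcl6b and Birc3 vary with the immediate-early genes was not tested. Thbs4 differed by -1.80 at 4 months (limma adjusted p = 0.162) and -0.43 at 12 months, and the test of that difference gave an unadjusted p of 0.0124 and a limma adjusted p of 1.

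Genes beside Pln on its chromosome were read as well. Of the 100 measured genes nearest to Pln in gene order, 50 on each side, 0 were called by limma (smallest unadjusted p 0.00474), and differences ran from -0.43 to 0.42 with a median of 0.01. The groups did not overlap for 3 of them, all higher in Tm180/PLB KO, beside 2.4% of all genes. Named after their values were seen, they were Asf1a, a histone chaperone, at 0.22, Sim1, a transcription factor, at 0.11, and a clone-named gene at 0.42.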

How the data were processed

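Left ventricular total RNA, 300 ng per sample from frozen tissue by Trizol per the labels, of 24 samples in 8 groups of 3, was hybridised to Affymetrix arrays. The deposited values are log2 expression per probe set. RMA is the method named in the submitters' processing notes, with version, settings and annotation build not given in the sources used here. Arrays have no read depth, and their number limits the precision.

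Of the probe sets, 21789 carried 1 gene symbol, 1621 several and 12147 none; 21698 were matched by Entrez number to RefSeq (GRCm38.p6) for current symbols. The probe set with the highest mean stood for each of 19938 genes, and 15918 genes exceeded 4.83, the 25th percentile, on at least 3 arrays. Limma 3.58.1 (R 4.3.3) fitted 8 group means to 24 arrays, with 16 residual degrees of freedom and Benjamini-Hochberg adjustment over all genes in each contrast. The script was tested on simulated data.

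The labels do not say that arrays come from separate mice beyond calling them biological replicates, so p-values measure the spread between these samples. Same-numbered arrays of the 2 groups deviated from their group means together (correlations 0.65, 0.73 and 0.72 over genes), so the numbers were taken to pair them. The main fit did not use this pairing, so SEs, intervals and p-values above ignore it except where the replicate block is named. With that block the smallest limma adjusted p beside Pln was 0.117, against 0.712 in the main fit.

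Members and the 36 gene lists were chosen with earlier results of these data known. Named genes are Pln and Tpm1, called genes without overlap, then the smallest unadjusted p without overlap up to 12 in each direction, 2 members of each list, the 2 smallest p of each interaction, and the 5 highest and 5 lowest called in Tm180 against NTG at 4 months. Others were chosen after their values were seen, among them the calcium handling genes beside Pln, Nppb, Acta1, Col1a1, Col3a1, Myl2, Myl7, Lyve1, Folr2, Prox1 and Bcl6b, and the genes called in other pairs. Clone-named genes were counted. Tried in turn were a replicate block, tests without the dim filter, a filter level at the 50th percentile, a trended robust prior, the compared groups alone, 12 arrays of 12 months, median centring, quantile normalization, array weights, the mean of probe sets, a Y-linked covariate, leaving out each of the 6 arrays and, added after seeing the data, the block with that covariate and a fit without the 4-month array whose labels conflict.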

Additional observations from a re-analysis of the deposited data

Results flagged for a closer look

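Zfp658 moved opposite ways at the 2 ages, with no overlap in either: it differed by 0.28 here and by -0.18 at 4 months, and the test of that difference gave an unadjusted p of 0.00223 and a limma adjusted p of 1. Myh7 did so between backgrounds at 12 months: it differed by -0.40 with the transgene and by 0.42 in PLB KO against NTG, with an unadjusted p of 0.0112 and a limma adjusted p of 1 for the difference.

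A dim signal also appeared among probe sets left out of the comparison because they carry several gene symbols or none. Of 9057 tested in the same way, 1 was called, a probe set annotated to several olfactory receptor genes and therefore not named. It was 4.54, 4.91 and 5.04 in Tm180/PLB KO and 3.55, 3.50 and 3.81 in Tm180, a difference of 1.21 ± 0.186 (SE; limma adjusted p = 0.029), while the other 18 arrays ran from 3.64 to 4.93. Replicates 2 and 3 of Tm180/PLB KO exceeded 4.83, the filter level for genes, and all Tm180 arrays lay below it. Passing such a filter would thus lean on the group where the probe set was high.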

How the results depend on the processing

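Pln alone was called in 18 of 19 alternatives, and without replicate 1 of Tm180 5 genes were called, so the range over left-out arrays was 1 to 5. The count at an unadjusted p under 0.05 was 581 with the replicate block, 650 with the block and the Y-linked covariate, and 171 to 364 with an array left out, with 364 without replicate 1 and 363 without replicate 3 of Tm180. At 4 months the count of 3 became 15 with the block, 18 with the compared groups alone, 7 with array weights, 6 with the Y-linked covariate, 26 with block and covariate, and 1 to 6 with an array left out: 6 without replicate 2 of Tm180 at 12 months, whose absence alters the shared spread, and 1 without the 4-month array whose labels conflict. For PLB KO against NTG at 12 months, 13 became 49 with the block, 1 with the compared groups alone, 1 with the 12 arrays of 12 months, and 86 with block and covariate. For Tm180 against NTG at 4 months, 81 became 557 with the block, 13 with the compared groups alone, 776 with array weights and 679 with block and covariate. The mean effect over the 3 other pairs gave 149 calls with the block and 42 with the covariate, which kept all 31. Without replicate 1 of Tm180 the age difference called 1 gene (Lcn2) and the background difference 3 (Ahsg, Cxcl13, Lcn2); otherwise both called 0 over left-out arrays. The pairing by replicate number changed no call in the comparison itself.

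Of 103 named genes, 89 kept direction and side of the threshold throughout, and of 1941 gene and alternative pairs 26 reversed, all of genes not called; the cause was not tested. Over left-out arrays, differences ran from -0.79 to 0.20 for Thbs4, -0.16 to 0.14 for Nppa, -0.21 to 0.40 for Postn, -0.12 to 0.19 for Cilp, -0.12 to 0.31 for Ppbp, -0.33 to 0.45 for Lgi1, -0.17 to 0.20 for Slc16a13, -0.66 to 0.01 for Sdf2l1, -0.04 to 0.38 for Egfl7, -0.96 to 0.10 for S100a8, -0.02 to 0.24 for Cd3d and -0.17 to 0.20 for Alas2. Array weights gave -0.01 for Cilp, -0.06 for Slc16a13 and -0.06 for Alas2, quantile normalization 0.01 for Nppa, and the mean of probe sets -0.09 for Ighm. Of 36 list medians, 17 stayed within the spread of the pairs throughout. Groups of 3 limit all of these values: the median SE was 0.159.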
